A study of Mus musculus with 8 samples.

Results

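The genes described are 10 components of the transforming growth factor beta (TGF-beta) pathway: the ligands Tgfb1, Tgfb2 and Tgfb3, the receptors Tgfbr1 and Tgfbr2, the feedback genes Smad7 and Skil, and the latency proteins Ltbp1, Ltbp3 and Ltbp4. Every probe set annotated with exactly 1 gene symbol among these names was taken, which gave 25 of the 45037 probe sets tested and all 10 genes of the 18193 measured. The main probe set of a gene was the one with the highest mean over all 8 arrays. The collagen group was fed AIN-93G diet mixed with fish scale collagen hydrolysate, at 2 g for each 100 g of diet, for 1 week, and the control group was fed AIN-93G alone for the same time. Both groups were female Hos:HR-1 hairless mice aged 10 weeks, and RNA came from whole dorsal skin, so each value averages epidermis, dermis and whatever lay beneath them in the sample. Each diet has 4 arrays, which the labels call biological replicates. No source used here says which of the 8 mice of a diet, or which cages, they came from. The comparison asks whether the pathway's RNA levels differed between the diets after a short feeding period.

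TGF-beta ligands are secreted in an inactive form, each dimer held by its own propeptide. Most of these complexes are bound by a latent TGF-beta binding protein (LTBP), which fixes them to the extracellular matrix until integrins or proteases release the ligand. Free ligand binds TGFBR2, which phosphorylates TGFBR1, and TGFBR1 in turn activates the transcription factors SMAD2 and SMAD3. SMAD7 blocks the activated receptor and SnoN, the product of Skil, represses SMAD target genes. In skin the pathway is known for restraining keratinocyte growth and for driving matrix production by fibroblasts.

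RefSeq promoter windows were available for 7 of the 10 genes. The 250 bases upstream of the annotated start are shown for 3 genes on which the later results turn: Tgfb2, whose probe sets varied most over the arrays, and the pair Tgfb1 and Ltbp4, which varied together. The windows lie at chr1:186705990-186706239 on the minus strand for Tgfb2, chr7:25686752-25687001 on the plus strand for Tgfb1 and chr7:27337613-27337862 on the minus strand for 1 of 3 annotated Ltbp4 starts (build GRCm38.p6), and each is written 5′ to 3′ on the gene's strand. Capitals mark GGGCGG or its complement on the other strand, TATAAA and CACGTG.
Tgfb2: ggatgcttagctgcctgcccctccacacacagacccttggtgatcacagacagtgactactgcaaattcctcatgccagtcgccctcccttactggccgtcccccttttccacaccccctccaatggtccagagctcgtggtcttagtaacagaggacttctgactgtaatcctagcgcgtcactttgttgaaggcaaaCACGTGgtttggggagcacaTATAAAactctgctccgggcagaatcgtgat
Tgfb1: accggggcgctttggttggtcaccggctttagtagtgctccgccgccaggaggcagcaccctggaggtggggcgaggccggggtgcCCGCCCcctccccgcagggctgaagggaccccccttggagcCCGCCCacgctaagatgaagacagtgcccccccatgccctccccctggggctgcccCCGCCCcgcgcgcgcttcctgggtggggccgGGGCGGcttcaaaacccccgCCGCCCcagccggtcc
Ltbp4: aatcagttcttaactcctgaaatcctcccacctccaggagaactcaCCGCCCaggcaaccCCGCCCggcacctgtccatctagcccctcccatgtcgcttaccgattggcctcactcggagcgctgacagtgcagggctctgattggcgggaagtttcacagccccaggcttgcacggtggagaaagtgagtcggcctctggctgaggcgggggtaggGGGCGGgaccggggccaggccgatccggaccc
The Tgfb2 window held 1 TATAAA, 1 CACGTG and no GGGCGG, with a GC content of 53.6%. The Tgfb1 window held 5 copies of GGGCGG, the Ltbp4 window held 3, and neither held TATAAA or CACGTG, with GC contents of 75.2% and 64.4%. Over 32851 windows of the same length, searched on both strands, 32.7% held GGGCGG, 12.4% held TATAAA and 6.02% held CACGTG. These matches describe the letters of the windows only.

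The deposited values are log2 values, one per probe set and array, and they vary very little between arrays. The median probe set spanned 7.36e-06 over the 8 arrays, and no source used here says why. Deviations and differences are therefore given in millionths of a unit of the deposited log2 scale (1e-06), and none was turned into a fold change. Collagen array 1 and control array 1 stood apart from the other arrays. The difference between the 3′ and 5′ probe sets of Gapdh, a measure of RNA quality, lay 495 and 327 millionths above the mean of all arrays in these arrays, against -60.1 to 28.7 millionths in the other collagen arrays and -308 to -235 millionths in the other control arrays. The arrays' medians over all probe sets spanned 330.7 millionths, more than the main probe sets of 9 of the 10 genes did, and collagen 1, the lowest at -255 millionths, set most of this. Without it the medians spanned 103.6 millionths, more than the main probe sets of 8 of the 10 genes. Centring each array on its median therefore adds 55.2 millionths to the difference of every gene alike, and would add -20.6 millionths without collagen 1. Of the cell type marker lists, 0 of 10 skeletal muscle, 0 of 8 endothelial, 0 of 10 fibroblast, 0 of 9 hair follicle, 1 of 8 macrophage and dendritic and 1 of 4 T cell genes were higher with collagen as deposited, against 52.9% of all genes. The count was 6 of 7 for keratinocyte, 4 of 5 for platelet, 2 of 4 for sebaceous and 2 of 5 for adipocyte genes. A list's score is the mean standardised deviation of its markers. The muscle score ranged from -1.63 to 0.19 in collagen arrays, against -0.63 to 1.16 in control arrays. The endothelial score ranged from -1.42 to 0.43 in collagen arrays, against 0.10 to 0.78 in control arrays. No score differed between the diets at an exact permutation p under 0.05. The smallest p were 0.0857 for endothelial, 0.114 for keratinocyte and 0.171 for muscle. All 7 measured keratinocyte markers had high levels, from 11.72 to 14.39, as skin should show.

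No TGF-beta gene passed the test between diets: the adjusted p of limma was 1 for all 25 probe sets. Of all 45037 probe sets tested, 0 (0%) passed the adjusted threshold of 0.05. At an unadjusted limma p under 0.05 the table held 1601 probe sets (3.55%), 588 of them lower with collagen (1.31%). Of the 25 probe sets of the TGF-beta genes, 1 was among these, the single Tgfb3 probe set, which was lower. Among main probe sets this was 1 gene of 10, against 3.62% of all genes in either direction and 1.27% lower. Among main probe sets, 7 of the 10 genes were lower and 3 (Skil, Ltbp1 and Ltbp3) higher with collagen, but 6 of 10 were higher (and 2 at 0) after quantile normalization and 9 of 10 after centring each array on its median. Of all 18193 genes, 47.1% were lower with collagen as deposited, while 65.6% were higher after quantile normalization and 94.6% after median centring. The median difference was -0.58 within-diet SD over the 10 genes and 0.05 over all genes. The diets overlapped in the main probe sets of all 10 genes, and in all but 2.02% of main probe sets in the table. In whole skin, fewer cells of a type and less RNA per cell cannot be told apart.

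**Figure D1:**
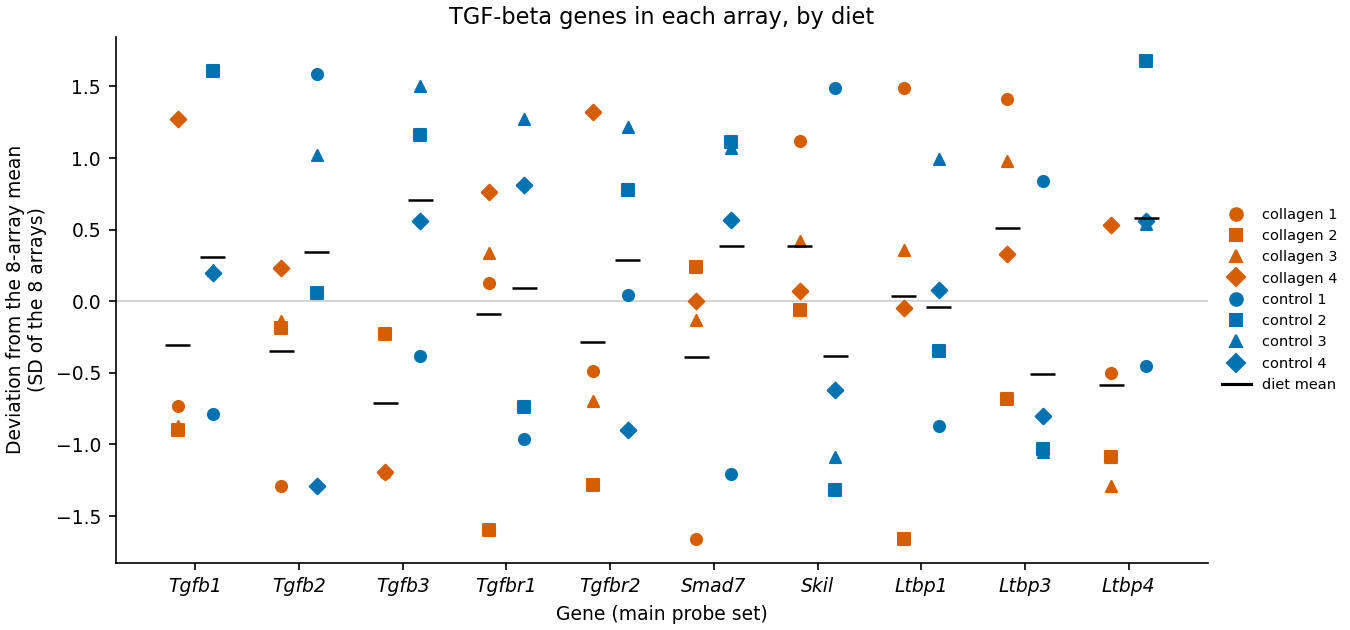
Each point is the deviation of 1 array from the mean of all 8 arrays for the gene's main probe set, in SD over the 8 arrays, with collagen arrays to the left of control arrays and black bars for diet means (4 arrays each). For all 10 genes the diets overlap, and collagen 1 and control 1 lie close together for Smad7.

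Among the ligands, Tgfb3 showed the difference with the smallest unadjusted p, and Tgfb1 and Tgfb2 differed by less than the SD within diets. Tgfb3, a ligand known for its part in epithelial fusion and wound repair, averaged 8.98 on the deposited log2 scale. It deviated by -14.1, -2.72, -2.64 and -14.0 millionths in collagen arrays 1 to 4, against -4.48, 13.7, 17.6 and 6.65 millionths in control arrays 1 to 4. All 4 collagen arrays lay below the control mean, and only control 1 reached into the collagen range. The difference was -16.7 ± 5.62 millionths (SE), with an unadjusted limma p of 0.0224, an adjusted p of 1 and an exact permutation p of 0.0857. Its 95% interval ran from -30.2 to -3.24 millionths, and the difference was -14.8 millionths without collagen 1 and -21.0 millionths without control 1. Tgfb3 was 75.1 millionths higher after quantile normalization and 38.4 millionths higher after median centring, which shifts every gene by the same amount, so the sign is relative to the scaling. Tgfb3 also moved with the Gapdh difference (r = -0.777 over 8 arrays) and with the skeletal muscle score (r = 0.801), and their part in the result was not tested beyond a fit with the Gapdh difference as a covariate, where the difference was -11.5 millionths.

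Tgfb2, which in skin is best known from the hair follicle, spanned more of the deposited scale over the arrays than the main probe sets of the other 9 genes. Its main probe set averaged 9.14 and deviated by -2202.5, -317, -233 and 401 millionths in collagen arrays 1 to 4, against 2723, 102, 1740 and -2213 millionths in control arrays 1 to 4. The control arrays alone span the whole range, from control 1 at the top to control 4 at the bottom, and the collagen arrays lie inside it. The range of 4936 millionths exceeded that of 98.9% of probe sets. The other 3 probe sets of Tgfb2 also ranked high, with ranges above 98.5%, 97.3% and 94.6% of probe sets. The 4 probe sets varied together: r was between 0.758 and 0.975 for their 6 pairs, and 5 of these passed an exact permutation test adjusted over the 24 pairs of probe sets within the 10 genes. Collagen 1 and control 4 were the 2 lowest arrays in each of the 4 probe sets. The 2 arrays farthest from the median were also left out, and these were not the same arrays for every pair. Without collagen 1 and control 4, r was 0.358 and 0.530 for 2 of the pairs, which rest on those arrays. The strongest of the other 4 had r = 0.978 without control 1 and control 4. Collagen 1 was kept there, so that value does not show whether the pair rests on collagen 1. The diets differed by -1176 ± 1167 millionths in the main probe set (SE, limma p 0.350, exact permutation p 0.371) and by -670 ± 717, -77.9 ± 96.2 and -72.5 ± 293 millionths in the other probe sets, and none passed the test. With 1 array left out the main difference ranged from -2110 millionths (without control 4) to -464 millionths (without control 1), and it was -637.7 millionths without collagen 1.

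**Figure D2:**
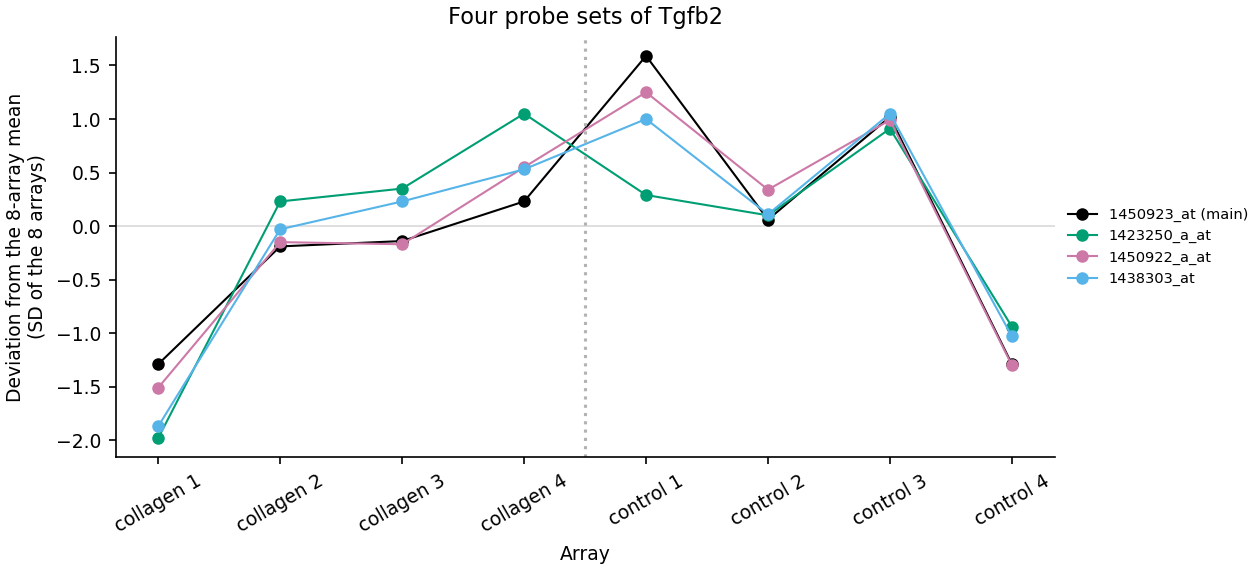
Lines join the values of each Tgfb2 probe set over the 8 arrays (collagen 1 to 4 left of the dotted line, control 1 to 4 right of it), as deviations from the mean of all arrays in SD; the arrays have no order. All 4 probe sets are low in collagen 1 and control 4 and high in control 3.

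Tgfb1, the ligand most tied to fibrosis and immune restraint, averaged 8.62. It deviated by -20.8, -25.5, -24.7 and 36.0 millionths in collagen arrays 1 to 4, against -22.5, 45.8, 6.12 and 5.60 millionths in control arrays 1 to 4. Collagen 4 stood far above the other collagen arrays, and control 1 lay among the low collagen arrays. The difference of -17.5 ± 19.7 millionths (SE) was smaller than its error, with a limma p of 0.405, and with 1 array left out it ranged from -32.4 millionths (without collagen 4) to -5.17 millionths (without control 2). A second Tgfb1 probe set differed by -0.0633 ± 1.92 millionths and varied with the first (r = 0.866 over 8 arrays, exact permutation p 0.00585, 0.0234 adjusted over the 24 pairs). Without the 2 arrays farthest from the median, that r was 0.630.

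Neither receptor passed the test between the diets, and both differed by less than their SD within diets. Tgfbr2, which binds the ligand first, averaged 12.89 and deviated by -9.03, -23.7, -13.1 and 24.5 millionths in collagen arrays 1 to 4, against 0.835, 14.5, 22.6 and -16.6 millionths in control arrays 1 to 4. Its highest array, collagen 4, and its lowest, collagen 2, came from the same diet. The difference was -10.7 ± 12.9 millionths (SE), from -20.6 millionths without collagen 4 to -4.545 millionths without collagen 2, and the 2 other Tgfbr2 probe sets were higher with collagen by 0.380 ± 0.479 and 0.116 ± 0.254 millionths. Tgfbr1, the kinase that passes the signal to SMAD proteins, averaged 10.78 and spanned 5.99 millionths over the arrays. Its difference was -0.390 ± 1.54 millionths (SE, limma p 0.807), from -1.12 to 0.66 millionths with 1 array left out, and the other 2 probe sets differed by -0.261 ± 0.298 and -0.296 ± 0.485 millionths.

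The feedback genes lay on opposite sides of 0, Smad7 lower and Skil higher with collagen, neither past the test, and after quantile normalization or median centring Smad7 was higher instead. Smad7 averaged 9.22 and deviated by -1.45, 0.210, -0.113 and 0.00213 millionths in collagen arrays 1 to 4, against -1.05, 0.969, 0.932 and 0.498 millionths in control arrays 1 to 4. Collagen 1 and control 1 were the 2 lowest arrays. The difference was -0.674 ± 0.612 millionths (SE, limma p 0.310), with -0.304 millionths without collagen 1 and -1.14 millionths without control 1. A second Smad7 probe set differed by -4.64 ± 19.7 millionths and ran against the first over the arrays (r = -0.746). Skil averaged 11.19 and deviated by 98.3, -5.71, 36.8 and 6.48 millionths in collagen arrays 1 to 4, against 131, -117, -96.3 and -54.4 millionths in control arrays 1 to 4. The 3 lowest arrays were all control arrays, and the highest was control 1. The difference was 68.0 ± 58.7 millionths (SE, limma p 0.288), with 46.5 millionths without collagen 1, 40.5 millionths without control 2 and 123 millionths without control 1. The second Skil probe set deviated by -0.110, 0.409, 0.231 and 0.685 millionths in collagen arrays, against -0.146, -0.452, -0.296 and -0.321 millionths in control arrays. This probe set averaged 7.68, below the median of 8.19 over all probe sets, and spanned 1.14 millionths. Over the 8 arrays it had r = 0.322 with the main Skil probe set. It was the only 1 of the 25 probe sets in which the diets did not overlap, against 2.01% of all 45037 probe sets. Its difference was 0.608 ± 0.256 millionths (SE), with a limma p of 0.0519, an adjusted p of 1 and an exact permutation p of 0.0286, the smallest that 4 against 4 arrays can give.

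Of the latency proteins, Ltbp4 lay below the control mean in all 4 collagen arrays as deposited, though not after quantile normalization or median centring, and did not pass the test, and Ltbp1 and Ltbp3 gave no single direction over their probe sets. Ltbp4, which binds the TGF-beta1 complex and is also needed for elastic fibres, averaged 9.05. It deviated by -10.4, -22.8, -27.0 and 11.1 millionths in collagen arrays 1 to 4, against -9.42, 35.3, 11.4 and 11.8 millionths in control arrays 1 to 4. Collagen 4 and control 1 crossed into the other diet's range. The difference was -24.6 ± 12.0 millionths (SE), with a limma p of 0.0833, an adjusted p of 1 and an exact permutation p of 0.0571, and it was 14.2 millionths after quantile normalization and 30.6 millionths after median centring. Ltbp3, which is known for binding latent TGF-beta in bone and other matrix, averaged 10.88. It deviated by 6.74, -3.27, 4.67 and 1.57 millionths in collagen arrays, against 4.03, -4.91, -5.02 and -3.82 millionths in control arrays. Apart from control 1, the control arrays lay below every collagen array. Its difference was 4.86 ± 2.96 millionths (SE, limma p 0.147), while its 3 other probe sets differed by -8.79 ± 7.35, 15.6 ± 37.8 and -9.27 ± 108 millionths. Ltbp1, a carrier of latent TGF-beta in fibroblast matrix, averaged 9.55, spanned 82.9 millionths and differed by 1.83 ± 19.2 millionths (SE), with collagen 1 highest and collagen 2 lowest, and from -10.9 millionths without collagen 1 to 16.7 millionths without collagen 2. Its other probe sets differed by -0.129 ± 0.391 and 4.48 ± 2.57 millionths.

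**Figure D3:**
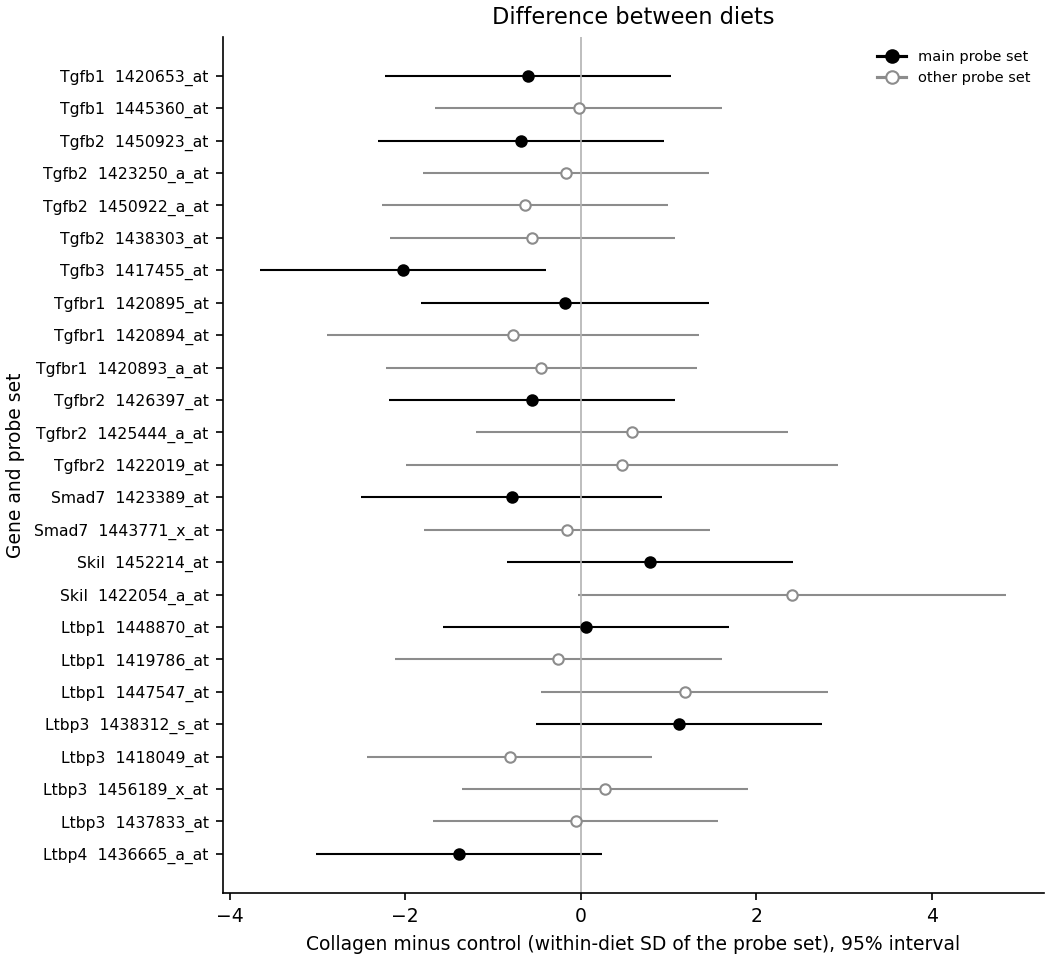
Points are the difference of collagen minus control for each of the 25 probe sets, in SD within diets, with limma's 95% interval. The interval of Tgfb3, at -2.02 SD, is the only 1 that leaves out 0, before any adjustment for the 45037 probe sets tested.

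Over the 8 arrays, 4 of the 45 pairs of genes were correlated past the threshold by Pearson's r, and 28 of the 45 pairs had a positive r (exact permutation of the 40320 pairings, adjusted over the 45 pairs). Strong correlations were not rare in the table: 2.59% of all genes had an r beyond 0.9 in either direction with Smad7, 1.54% with Skil and 0.973% with Ltbp3. Smad7 and Skil ran in opposite directions, with r = -0.961 (exact permutation p 0.000248, adjusted 0.00781) and rho = -0.976 (adjusted 0.0179). Without collagen 1 and control 1, the 2 arrays farthest from the Smad7 median, r was -0.992. The sign turned with the scaling: r was 0.876 after quantile normalization and 0.843 after median centring, which adds the same array shift to both genes. Smad7 also ran against Ltbp3, with r = -0.909 (exact permutation p 0.000347, adjusted 0.00781), rho = -0.952 (adjusted 0.0257) and r = -0.873 without the same 2 arrays, but r = 0.999 after median centring. Skil and Ltbp3 varied together, with r = 0.901 (exact permutation p 0.00188, adjusted 0.0212), rho = 0.905 (adjusted 0.0685) and r = 0.931 without control 1 and control 2. None of the 45 pairs passed the threshold without control 2, where r for these 3 pairs was -0.955, -0.889 and 0.883. None passed without collagen 1 and control 1 together either, where 6 arrays remain. There the smallest possible permutation p, 0.00139, cannot pass the adjusted threshold for a single pair. Smad7 and Skil had an adjusted permutation p of 0.0625 in those arrays.

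These 3 genes moved with the Gapdh difference. Its r was -0.969 with Smad7, 0.911 with Skil and 0.883 with Ltbp3, and 3.91% of all genes had an r beyond 0.88 in either direction. The skeletal muscle score gave r = 0.878 with Smad7, -0.801 with Skil and -0.820 with Ltbp3. After the Gapdh difference was taken out of each gene by a straight line, r was -0.768 for Smad7 and Skil, -0.457 for Smad7 and Ltbp3 and 0.497 for Skil and Ltbp3, and 0 of the 45 pairs passed the threshold. The relations also rest on the probe sets chosen. The second Smad7 probe set gave r = 0.684 with Skil and 0.637 with Ltbp3, opposite in sign to the main one. One other Ltbp3 probe set also turned the sign, with r = 0.581 with Smad7 and -0.497 with Skil. The remaining Ltbp3 probe sets kept the sign more weakly, with r = -0.254 and -0.092 with Smad7 and 0.420 and 0.289 with Skil. The second Skil probe set did too, with r = -0.205 with Smad7 and 0.330 with Ltbp3.

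Tgfb1 and Ltbp4 varied together, with r = 0.916 (exact permutation p 0.00119, adjusted 0.0179) and rho = 0.857 (adjusted 0.0964). Their r was 0.943 without collagen 4 and control 2 and 0.649 for the second Tgfb1 probe set, and it turned to -0.331 after quantile normalization. The pair did not pass after the Gapdh difference was taken out (r = 0.887, adjusted permutation p 0.175) or without control 2 (r = 0.851, adjusted permutation p 0.134). For deviations from the diet means r was 0.964 (adjusted permutation p 0.0781), where the permutations cannot reach the threshold for a single pair. Of all genes, 1.29% had an r beyond 0.9 with Tgfb1 and 0.803% with Ltbp4. Tgfbr2 tended the same way without passing the threshold (r = 0.727 with Tgfb1). The endothelial score gave r = 0.749 with Tgfb1, 0.804 with Ltbp4 and 0.789 with Tgfbr2. It was not alone: in the same order r was 0.765, 0.741 and 0.926 for the macrophage and dendritic score, and 0.633, 0.604 and 0.818 for the fibroblast score. None of these passed after adjustment, and the part of these scores in the relation was not tested. Tgfb2 passed the threshold with none of the other genes, and its strongest r was 0.54, with Tgfbr2.

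**Figure D4:**
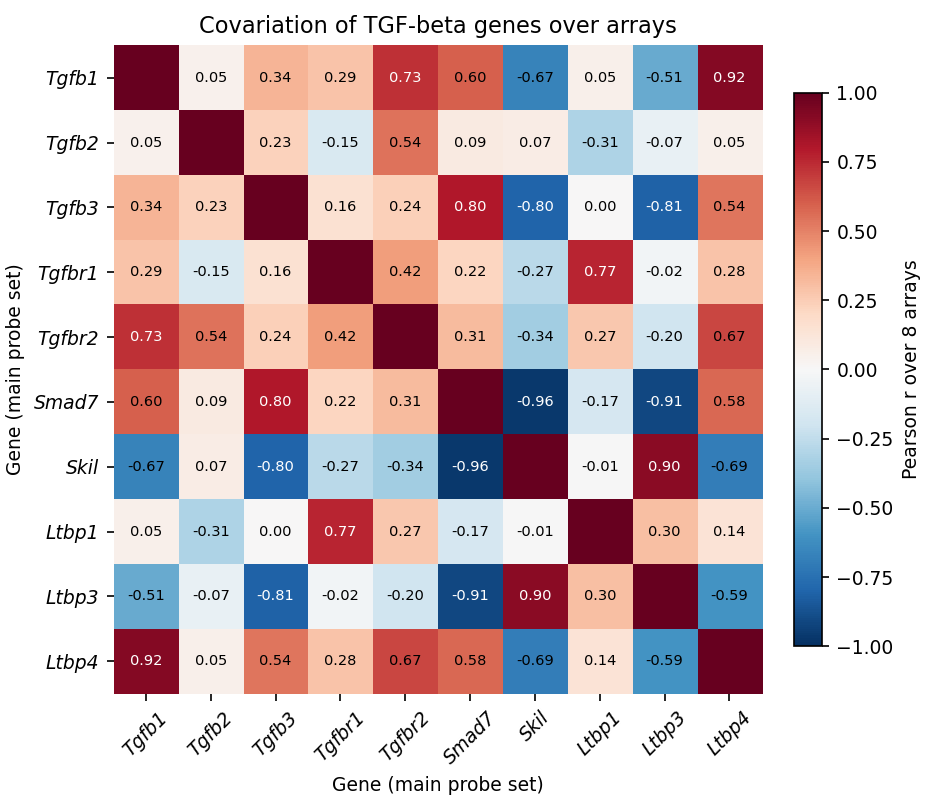
Each cell gives Pearson's r over the 8 arrays between the main probe sets of 2 genes, from -1 (blue) to 1 (red). Tgfb1 with Ltbp4 (r = 0.916) and the block of Smad7 against Skil and Ltbp3 stand out, and the Tgfb2 entries are mostly pale.

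**Figure D5:**
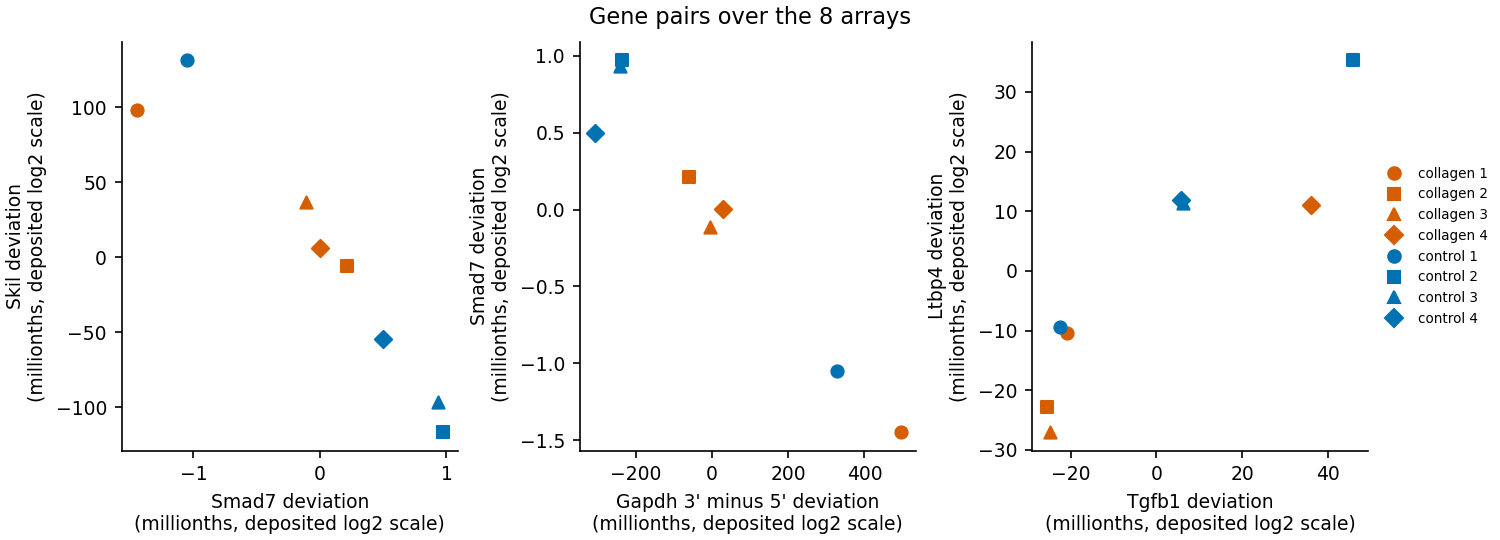
Points are the 8 arrays (orange collagen, blue control, marker shapes for array numbers), with deviations in millionths of the deposited log2 scale. Skil is low where Smad7 is high (r = -0.961), Smad7 is low where the Gapdh difference is high (r = -0.969), as in collagen 1 and control 1, and Ltbp4 and Tgfb1 are high in the same arrays (r = 0.916).

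In 110 correlations of the 10 genes with 10 cell type scores and the Gapdh difference, 17 had an exact permutation p under 0.05 and none passed after adjustment, where the smallest p was 0.0527. Tgfbr2 with the macrophage and dendritic score (r = 0.926, adjusted permutation p 0.0527) and Tgfbr1 with the adipocyte score (r = 0.892, adjusted permutation p 0.0755) were among the closest. That macrophage and dendritic score ranged from -1.38 to 0.84 in collagen arrays, against -0.23 to 0.85 in control arrays.

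The genes most like each ligand over the 8 arrays are given as a description, among 18183 other genes. For Tgfb1 these were Cap1, an actin regulator (r = 0.980), Bcam, a laminin receptor (r = 0.974), and Npdc1 (r = 0.972). For Tgfb2 they were Rpl38, a ribosomal protein gene (r = 0.976), Smoc2, a matrix protein gene (r = 0.952), and Mmp11, a matrix metalloproteinase gene (r = 0.951). For Tgfb3 they were Igf2, a growth factor (r = 0.975), Rnf26, a ubiquitin ligase (r = 0.964), and Itgb4, the integrin chain of hemidesmosomes (r = 0.954). A total of 163 genes had r above 0.9 with Tgfb1, 26 with Tgfb2 and 19 with Tgfb3.

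The wider pathway was read through 4 lists of 85 genes, of which 82 were measured. None passed an adjusted threshold, and 2 had an unadjusted limma p under 0.05, both of them higher with collagen, against 2.35% of all genes in that direction. Both belonged to the receptor and SMAD list: Usp15, a deubiquitinase that stabilises the receptor, at 25.5 ± 8.16 millionths (limma p 0.0183), and Strap, a receptor-binding inhibitor, at 8.26 ± 2.99 millionths (limma p 0.0302). The third was Smad2, a signal transducer, at 2.70 ± 1.13 millionths (limma p 0.0510). As deposited, 10 of the 20 genes of this list, 7 of 15 storage and activation genes, 12 of 23 target genes and 11 of 24 BMP and activin genes were higher with collagen, against 52.9% of all genes, while after median centring 19, 11, 20 and 23 of them were, against 94.6% of all genes. The storage and activation genes with the smallest p were Fmod, a matrix proteoglycan gene, at 48.1 ± 27.0 millionths, Fbn2, the fibrillin 2 gene, at -551.5 ± 323 millionths, and Ltbp2, at 93.2 ± 63.6 millionths. Among targets, Col1a1, which codes for the main skin collagen, stood at -2879 ± 1710 millionths, Plaur, the urokinase receptor gene, at 83.9 ± 53.9 millionths, and Lox, the collagen crosslinking enzyme gene, at -919.6 ± 666 millionths, with a limma p of 0.139 to 0.213. In the BMP and activin list, Bmp7, a BMP ligand, stood at -0.568 ± 0.261 millionths, Fst, which binds activin, at 56.6 ± 33.6 millionths, and Inhbb, an activin subunit, at 6.74 ± 4.12 millionths. None of these passed the test.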

How the data were processed

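Total RNA from powdered frozen dorsal skin was labelled with biotin, with a 3' IVT kit, per the labels' protocols. The authors deposited log2 values in 1 table with a column per array, 8 arrays in all. The submitters' processing notes name R 2.7.2, while the summary and normalization methods are not stated there. Their values run from 6.56 to 14.46, and 87.2% of probe sets spanned under 0.0001 over the arrays. Signal over background is unknown, since detection calls were not used, and the number of arrays limits the precision. Differences were computed in the deposited units and multiplied to millionths.

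The 64 control probe sets were left out, and the diets were compared over the remaining 45037 with lmFit and eBayes of limma 3.58.1 (R 4.3.3), as collagen minus control, two-sided, with Benjamini-Hochberg adjustment over all 45037 probe sets and a threshold of 0.05. Probe sets were named from the platform annotation: 34945 had 1 gene symbol, 932 several and 9160 none. Single differences were also tested by exact permutation over 70 assignments of arrays, two-sided, and correlations over the 40320 pairings, both with numpy 2.4.6. The ranks for rho came from scipy 1.17.1. The 95% intervals are limma's. The fit and the permutation test of correlations were tested on simulated data, and the exact permutation test of differences was not. Alternatives were scaling, filters, the variance model, weights per array, a block for the replicate number, each array left out, other probe sets and, chosen after the data were seen, the Gapdh difference as a covariate. All 10 genes are named with all their probe sets, with the 3 genes of smallest limma p in each pathway list and the 3 genes most like each ligand. The genes, lists and tests were chosen with earlier results of these data known. Replicate numbers were not used to pair arrays in the main fit. The deviations of same-numbered arrays had r = 0.370, 0.0640, 0.205 and 0.0401, all positive but not all above 0.1. The closest control array had the same number for collagen 1 and collagen 3, and another number for collagen 2 and collagen 4. Whether same-numbered arrays were handled together is not known.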

Additional observations from a re-analysis of the deposited data

Results flagged for a closer look

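In 3 of 50 groups of 4 arrays, a single array lay far from the rest, by the gap to its nearest neighbour divided by the group's whole range; chance gives about 1 in 20. Among collagen arrays, the main Tgfb1 probe set was highest in collagen 4, with a ratio of 0.924. Among control arrays, the main Ltbp3 probe set was highest in control 1, with a ratio of 0.867, and another Ltbp3 probe set was highest in control 2, with a ratio of 0.836.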

How the results depend on the processing

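Of 105 differences of the genes under other alternatives, 82 kept their direction and their side of the threshold. Another 21 turned and 2 became 0 (Tgfbr2 and Ltbp3 after quantile normalization). The variance model, the filters, the replicate block and the permutation test leave the difference itself as it was. The 82 therefore include differences whose direction could not change. With 1 array left out 73 of 80 kept their direction. Quantile normalization called 2 probe sets in the table, none of these genes, and put 6 of 10 genes higher with collagen; median centring put 9 higher. Under quantile normalization the differences in millionths were 0.523 for Tgfb1, 75.1 for Tgfb3 and 234 for Tgfbr1. They were 213 for Smad7, -101 for Ltbp1 and 14.2 for Ltbp4. For Tgfb3, Tgfbr1 and Smad7 these exceed the whole span of the deposited values over the 8 arrays, 31.7, 5.99 and 2.42 millionths. Under median centring the differences were 37.7 for Tgfb1, 38.4 for Tgfb3, 54.8 for Tgfbr1, 44.5 for Tgfbr2, 54.5 for Smad7 and 30.6 for Ltbp4. With the Gapdh difference as a covariate, Tgfbr1 was 0.0568, Smad7 0.00753 and Ltbp1 -2.55, and with array weights Ltbp1 was -4.605. Other probe sets gave 0.116 and 0.380 for Tgfbr2, -0.129 for Ltbp1, and -8.79 and -9.27 for Ltbp3. Leaving out 1 array gave 2 to 4 genes higher, -1.12 to 0.66 for Tgfbr1, -10.9 to 16.7 for Ltbp1 and 23 to 29 positive pairs. The called pairs numbered 0 to 5 with 1 array left out (0 without control 2). They numbered 0 without collagen 1 and control 1 together, where the permutations of 6 arrays cannot reach the threshold for a single pair. After quantile normalization 0 of 28 computable pairs were called, with r of -0.331 for Tgfb1 and Ltbp4 and 0.876 for Smad7 and Skil. After median centring 28 were called. They included Smad7 and Ltbp3 (r = 0.999) but not Smad7 and Skil (r = 0.843, adjusted permutation p 0.114). Centring adds the same array shift to every gene by construction. The array medians spanned 330.7 millionths, more than the main probe sets of 9 of the 10 genes did, so these calls do not describe the genes alone. By deviations from diet means 0 were called, where the 576 permutations cannot reach the threshold for a single pair. Genes higher in the 4 pathway lists after median centring were 19, 11, 20 and 23, against 94.6% of all genes. The BMP and activin list had 20 after quantile normalization, against 65.6% of all genes. The replicate block called 0 probe sets, with 2801 at an unadjusted p under 0.05 against 1601 without it, and 3 genes higher. The cause of these changes was not tested. Median centring adds 55.2 millionths to every difference by construction, and would add -20.6 millionths without collagen 1.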
